A study of Homo sapiens with 2 samples.

Results

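The enzymes that modify transfer RNA (tRNA) were followed after knockdown of the splicing regulator SRSF1 in RKO, a long-established cell line grown from a human colon carcinoma. The members were 48 genes listed by symbol, namely subunits of the Elongator complex and enzymes or activators that alter tRNA bases or riboses. All 48 had a row in the gene table of 40205 rows, and 47 of them had a mean level of at least 1 FPKM over both libraries, as did 11274 rows in all. The unit FPKM is the number of sequenced fragments for each kilobase of a gene, relative to all fragments counted in that library. The groups were cells transfected with an siRNA against SRSF1 and cells transfected with a control siRNA, both collected 48 h later, with no other treatment or genotype named in the labels. Each group was 1 library, so no difference below has a replicate check and no p-value was calculated. The siRNA sequences are not in the labels, and direct silencing of other genes by the siRNA cannot be told apart from loss of SRSF1.

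A tRNA receives many chemical marks after transcription. Those at the wobble position of the anticodon and at the purine beside it tune codon reading and keep the reading frame, while those in the body of the molecule mostly support its folding and stability. Elongator begins the mark on wobble uridine, which ALKBH8 then methylates and the CTU1 and CTU2 enzyme pair thiolates with sulfur carried by URM1. Several genes of the list are mutated in disorders of the brain or of mitochondria.

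SRSF1 itself was at 32.7 FPKM in the SRSF1 siRNA library and at 103 FPKM in the control siRNA library, which is 31.7% of the control level. The interval from 30.6% to 32.8% is an exact Clopper-Pearson 95% interval of the ratio from recovered fragment counts, as are all intervals below, and covers counting error only. The libraries held 61879680 reads with SRSF1 siRNA and 64651910 with control siRNA, of which 75.9% mapped with SRSF1 siRNA and 70.4% with control siRNA. The mitochondrial chromosome held 8.39% of the mapped reads with SRSF1 siRNA and 6.60% with control siRNA. Of 5 epithelial markers, EPCAM, KRT8 and KRT18 were measured, with a summed level of 105 FPKM with SRSF1 siRNA and 109 FPKM with control siRNA, whereas KRT19 and CDH1 were listed at 0 in both libraries. Of 15 markers of leukocytes, fibroblasts, endothelium and red cells, LCP1 alone reached a mean of 1 FPKM, at 109 FPKM with SRSF1 siRNA and 74.3 FPKM with control siRNA.

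The promoters of the 4 members with the lowest differences and of OSGEP, which had the highest difference on the log2(FPKM + 1) scale, are shown first. They give the sequence at annotated starts of genes at both ends of the range. Each window is the RefSeq sequence on GRCh38.p14 from 250 bases before to 50 bases after an annotated start, on the strand of the gene. Capitals mark matches on either strand to any of 6 short motifs. They are GGGCGG for the GC box, CCAAT for the box of that name, CCGGAAG for factors of the ETS family, CACGTG for the E-box, TGACGTCA for the cyclic AMP response element (CRE) and TATAAA for the TATA box. ELP2 lies at chr18:36129649-36129948 on the plus strand, TRMT1L at chr1:185157049-185157348 on the minus strand, ADAT1 at chr16:75623232-75623531 on the minus strand, DUS4L at chr7:107563721-107564020 on the plus strand and OSGEP at chr14:20454763-20455062 on the minus strand.
ELP2: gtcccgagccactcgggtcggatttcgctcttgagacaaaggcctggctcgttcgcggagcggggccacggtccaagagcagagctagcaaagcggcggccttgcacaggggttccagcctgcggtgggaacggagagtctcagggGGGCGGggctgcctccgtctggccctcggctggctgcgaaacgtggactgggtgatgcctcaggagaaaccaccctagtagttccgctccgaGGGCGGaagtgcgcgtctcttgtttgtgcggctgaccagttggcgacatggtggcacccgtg
TRMT1L: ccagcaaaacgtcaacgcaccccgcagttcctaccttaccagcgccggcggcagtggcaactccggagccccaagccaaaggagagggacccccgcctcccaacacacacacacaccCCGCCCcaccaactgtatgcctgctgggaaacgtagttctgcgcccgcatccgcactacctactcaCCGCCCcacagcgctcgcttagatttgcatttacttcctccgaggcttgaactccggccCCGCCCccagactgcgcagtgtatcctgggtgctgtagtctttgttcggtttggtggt
ADAT1: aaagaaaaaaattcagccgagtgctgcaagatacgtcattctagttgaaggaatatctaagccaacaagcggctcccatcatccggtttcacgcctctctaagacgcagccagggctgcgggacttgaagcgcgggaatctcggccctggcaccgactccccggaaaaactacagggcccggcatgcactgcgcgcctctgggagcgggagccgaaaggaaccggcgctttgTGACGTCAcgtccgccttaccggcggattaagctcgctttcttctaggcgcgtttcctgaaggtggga
DUS4L: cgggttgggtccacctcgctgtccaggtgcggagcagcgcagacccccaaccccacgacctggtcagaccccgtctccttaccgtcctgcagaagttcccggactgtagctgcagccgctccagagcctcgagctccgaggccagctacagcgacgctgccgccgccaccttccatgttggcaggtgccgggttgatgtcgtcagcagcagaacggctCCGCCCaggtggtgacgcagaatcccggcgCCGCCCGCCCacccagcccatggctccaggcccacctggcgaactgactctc
OSGEP: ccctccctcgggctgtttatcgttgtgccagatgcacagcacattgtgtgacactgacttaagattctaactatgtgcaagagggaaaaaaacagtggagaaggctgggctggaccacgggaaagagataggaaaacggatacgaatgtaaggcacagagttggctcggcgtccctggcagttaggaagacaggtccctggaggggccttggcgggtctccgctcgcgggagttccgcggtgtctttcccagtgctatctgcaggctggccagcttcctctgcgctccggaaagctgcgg
The ELP2 window held 2 GC boxes and that of TRMT1L held 3. A second window is listed for TRMT1L, at chr1:185156904-185157203, which overlaps the one printed and held 2 GC boxes and 2 CCAAT matches. DUS4L also had 3, of which 2 overlapped each other, and ADAT1 had a CRE and no other match. None of the motifs was found in the OSGEP window. Windows were listed for 38 of the 48 members under their current symbols. At least 1 window held a GC box for 22 of these 38 members (57.9%), against 79.4% of 7787 tested mRNA genes. The ETS letters were present for 16 members (42.1%), against 25.3% of the tested mRNA genes, and over all 35116 windows of the table the shares were 45.0% for the GC box and 10.3% for the ETS letters. CCAAT was found for 16 members (42.1%) and in 43.9% of the tested mRNA genes, and for both sets the TATA letters were rare (7.89% and 7.23%). CRE letters stood in 3 members (7.89%, against 4.03% of the tested mRNA genes) and E-box letters in 4 (10.5%, against 13.3%). Over all windows these letters were found in 34.6% (CCAAT), 11.5% (TATA), 1.85% (CRE) and 7.26% (E-box). A match is a run of letters and was not tested as a binding site.

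The levels of the members covered a wide range. In the SRSF1 siRNA library they ran between 1.73 FPKM for CTU1 and 106 FPKM for NSUN2, with a median of 10.1 FPKM, and in the control siRNA library between 1.15 FPKM for CTU1 and 110 FPKM for TRMT10C, with a median of 13.5 FPKM. The most abundant members were the same 4 genes in both libraries, the methyltransferases NSUN2, TRMT10C and TRMT6 and the activator TRMT112. At the low end, 13 members were under 5 FPKM with SRSF1 siRNA and 8 with control siRNA. LCMT2, the last enzyme of wybutosine synthesis, was listed at 0 in both libraries. Its gene has a single exon in GENCODE 29, as do those of TRMT12 and MOCS3, which were both expressed.

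**Figure D1:**
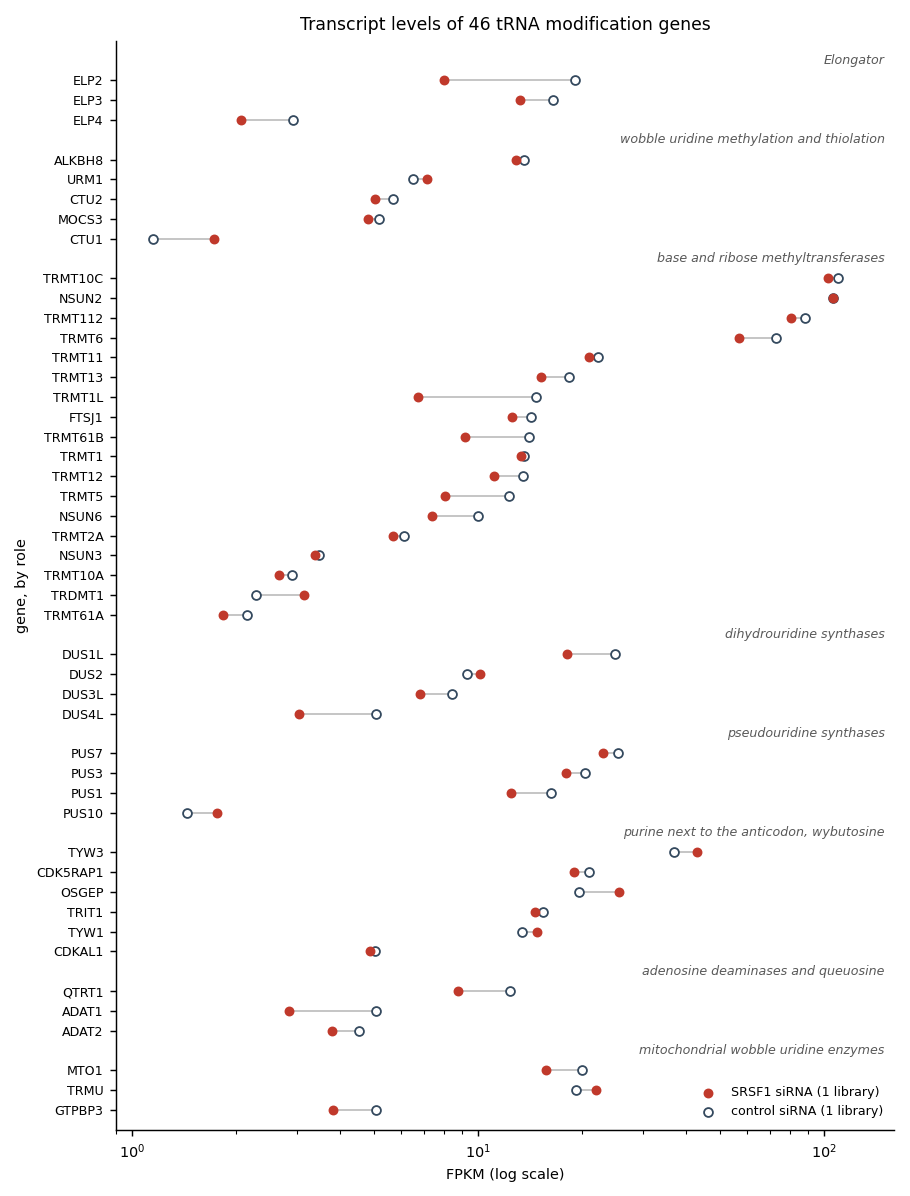
FPKM (log axis) of 46 members with a mean of at least 1 FPKM, grouped by role, with filled points for the SRSF1 siRNA library and open points for the control siRNA library. The widest gaps belong to ELP2 (7.97 FPKM with SRSF1 siRNA and 19.1 FPKM with control siRNA) and TRMT1L (6.71 FPKM with SRSF1 siRNA and 14.7 FPKM with control siRNA), and the points of NSUN2 coincide at 106 FPKM.

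With SRSF1 siRNA most members were somewhat lower, few were much lower and none was much higher. Change was measured as log2(FPKM + 1) with SRSF1 siRNA minus log2(FPKM + 1) with control siRNA, a scale that makes changes of low genes look smaller. At least 1.5-fold lower on this scale were 4 of the 47 members (8.51%), ELP2, TRMT1L, ADAT1 and DUS4L, where 4.3% of all tested genes and 3.23% of those of type mRNA, the type of all members, were that much lower. At least 2-fold lower were 2 of them (4.26%), ELP2 and TRMT1L, against 0.435% of all tested genes and 0.129% of mRNA genes. TRMT1L missed the 2-fold limit, at -0.97, with quantile normalization and after division by the median ratio. Quantile normalization left 2 members at least 1.5-fold lower, beside 327 of all tested genes lower and 214 higher, where the values as deposited gave 485 lower and 138 higher. Division by the median ratio left 3 members, beside 363 of all tested genes lower and 201 higher. Members at least 1.5-fold higher numbered 0, where 1.22% of all tested genes and 0.755% of mRNA genes were, and so did those at least 2-fold higher, where 0.284% and 0.0994% were. With so few members past each limit, these shares are uncertain. The members and roles were also chosen with earlier results of these data known, so shares and medians here are descriptions only. In such bulk libraries a change in every cell and a change in some of the cells cannot be told apart.

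The median difference of the 47 members was -0.15, beside -0.06 over all 11274 tested genes and -0.05 over the 10064 of type mRNA. With quantile normalization the median was -0.08 over the members and 0.01 over all tested genes, and after division by the median ratio it was -0.09 and 0.00. Below 0 were 38 members (80.9%), against 60.3% of all tested genes and 59.9% of mRNA genes, and 34 lay below the median of all genes. Ratios of FPKM given below for single genes carry no pseudocount. The counting interval of this ratio lay below 1 for 25 members (53.2%, against 34.5% of all tested genes and 36.0% of mRNA genes). It lay above 1 for 6 (12.8%, against 19.5% and 20.8%), and it held 1 for the other 16. Whether an interval holds 1 also depends on the number of fragments, which was not matched. The share of reads on the mitochondrial chromosome was higher in the SRSF1 siRNA library (8.39%) than in the control siRNA library (6.60%), and its part in the median was not tested.

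**Figure D2:**
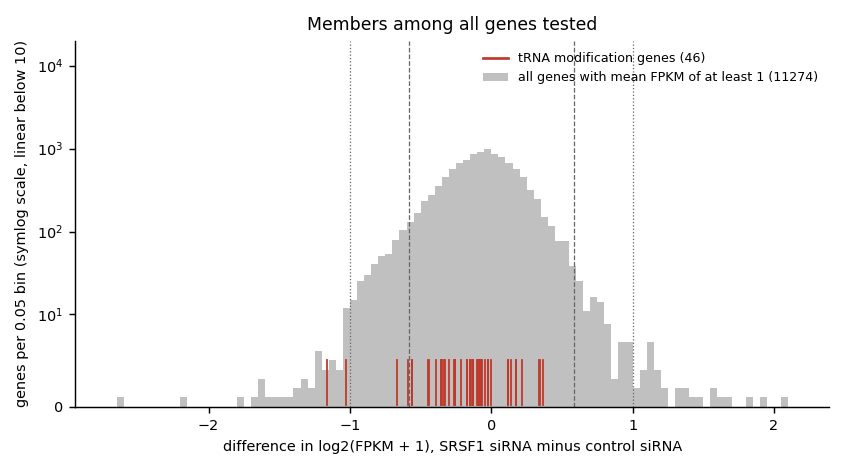
Histogram of the change (log2 scale, pseudocount 1, SRSF1 siRNA over control siRNA) over 11274 genes, with a red line for each of 46 members and dashed and dotted lines at 1.5-fold and 2-fold. The vertical axis counts genes per bin and is logarithmic above 10. ELP2 (-1.16) and TRMT1L (-1.03) lie beyond the lower 2-fold line, and the highest member is OSGEP at 0.36.

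Elongator has a catalytic core, which includes ELP2 and ELP3, and a ring of ELP4, ELP5 and ELP6. ELP2, ELP3 and ELP4 had levels below control with SRSF1 siRNA, by unequal amounts, and of these ELP2 alone fell past the 1.5-fold limit. ELP2, a WD repeat protein of the core, was at 7.97 FPKM with SRSF1 siRNA and 19.1 FPKM with control siRNA, or 0.417 times (0.360 to 0.482), from at least 268 fragments with SRSF1 siRNA and 623 with control siRNA. Its difference of -1.16 was the 26th lowest of the 11274 tested genes. ELP3, the catalytic subunit, was at 13.2 FPKM with SRSF1 siRNA and 16.5 FPKM with control siRNA (0.802 times, 0.737 to 0.872). ELP4 was the least abundant of the 3, at 2.07 FPKM with SRSF1 siRNA and 2.93 FPKM with control siRNA (0.708 times, 0.563 to 0.889).

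The counting interval of ELP2 overlapped none of those of ELP3, ELP4, ELP5 and ELP6. Per length of gene model, ELP2 stood at 60.4% of the ELP3 level with SRSF1 siRNA and at 116% with control siRNA, while ELP4 stood at 15.7% with SRSF1 siRNA and 17.8% with control siRNA. Of the ring subunits that are not among the 48, ELP5 stood at 0.953 of its control level (0.860 to 1.06) and ELP6 at 0.699 (0.598 to 0.816). In GENCODE 29 (GRCh38), ELP2 spans bases 36129444 to 36180556 of chromosome 18 on the plus strand, and its exons share 395 bases with an antisense gene on the opposite strand. ELP4 shares 5241 bases with PAX6, also on the opposite strand. No source used here gives the strand setting of the counting, so reads of such pairs could be mixed.

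The enzymes that act after Elongator showed no common direction. ALKBH8, which methylates the wobble uridine, was at 12.9 FPKM with SRSF1 siRNA and 13.6 FPKM with control siRNA (0.948 times, 0.876 to 1.03). Among the thiolation genes, CTU2 was at 5.04 FPKM with SRSF1 siRNA and 5.69 FPKM with control siRNA (0.885 times, 0.730 to 1.07). MOCS3, which activates URM1, was at 4.81 FPKM with SRSF1 siRNA and 5.19 FPKM with control siRNA (0.928 times, 0.750 to 1.15), and URM1 at 7.13 FPKM with SRSF1 siRNA and 6.48 FPKM with control siRNA (1.10 times, 0.989 to 1.22). These intervals all hold 1. CTU1 was the exception, at 1.73 FPKM with SRSF1 siRNA and 1.15 FPKM with control siRNA, or 1.51 times (1.07 to 2.15), on at least 87 fragments with SRSF1 siRNA and 56 with control siRNA. It was the least abundant member in both libraries, and on the log2(FPKM + 1) scale its difference of 0.35 did not reach 1.5-fold. CTU2 was 2.91 times as abundant as its partner CTU1 with SRSF1 siRNA and 4.96 times with control siRNA.

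**Figure D3:**
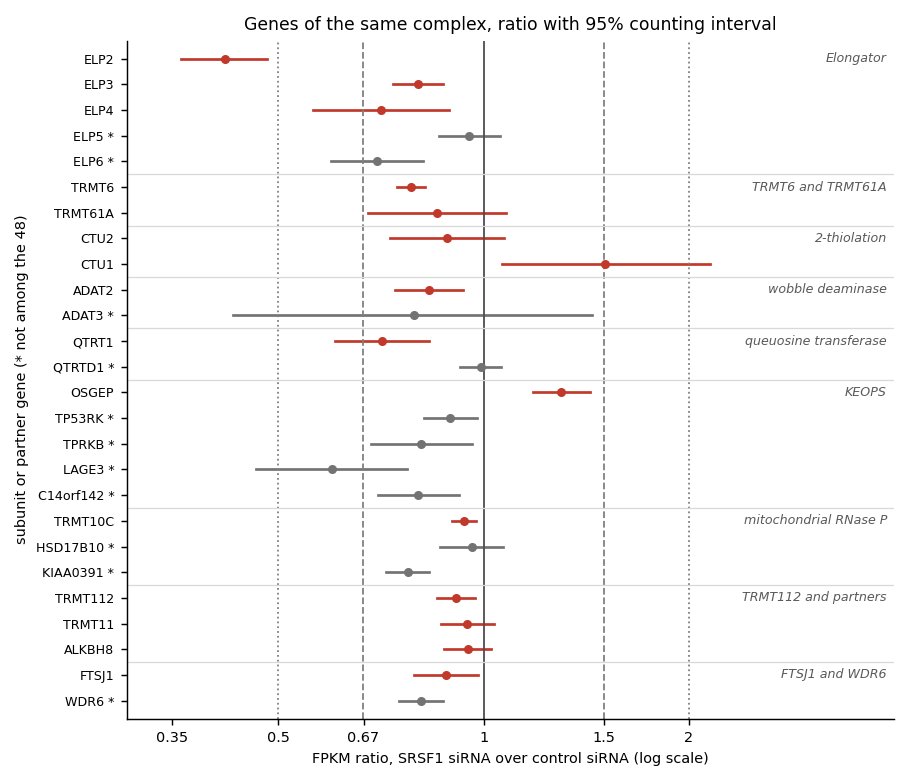
FPKM ratio of SRSF1 siRNA over control siRNA (log axis) with 95% counting intervals for genes whose products work together, red for members and grey with an asterisk for genes outside the 48. Dashed lines mark ratios of 1.5 in either direction and dotted lines ratios of 2. ELP2 (0.417) stands left of the other Elongator subunits plotted, and OSGEP (1.30) stands right of its partners.

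The 18 base and ribose methyltransferases had a median difference of -0.14. Of these, 17 were below 0 (94.4%, against 60.3% of all tested genes). At least 1.5-fold lower was 1 (5.56%, against 4.3% of all tested genes). Of the 17, TRMT1, TRMT10A, NSUN2 and NSUN3 were so near 0 that they lay above it under at least 1 of the alternative settings. The gene past the limit was TRMT1L, a paralog of TRMT1, which places dimethylguanosine in many tRNAs. TRMT1L was at 6.71 FPKM with SRSF1 siRNA and 14.7 FPKM with control siRNA, or 0.456 times (0.416 to 0.499), from at least 706 fragments with SRSF1 siRNA and 1503 with control siRNA. TRMT1 was at 13.3 FPKM with SRSF1 siRNA and 13.5 FPKM with control siRNA (0.984 times, 0.775 to 1.25). TRMT1L thus stood at 50.4% of the TRMT1 level with SRSF1 siRNA and at 109% of it with control siRNA. TRMT1L spans bases 185118098 to 185157072 of chromosome 1 (GRCh38, minus strand), and no exon of another GENCODE 29 gene overlaps it.

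Just short of the 1.5-fold limit, which is 0.585 in size on the log2 scale, were TRMT61B and TRMT5, with log2(FPKM + 1) differences of -0.56 each, and just past it was DUS4L at -0.59. TRMT61B, which methylates adenosine in mitochondrial tRNA, was at 9.16 FPKM with SRSF1 siRNA and 14.02 FPKM with control siRNA (0.654 times, 0.575 to 0.743). TRMT5, which methylates the guanosine next to the anticodon, was at 8.02 FPKM with SRSF1 siRNA and 12.3 FPKM with control siRNA (0.652 times, 0.602 to 0.707). As plain ratios without a pseudocount both were at least 1.5-fold lower, which made 6 members lower and CTU1 higher under that rule, where 7.63% of the tested genes above 0 in both libraries were lower and 2.27% higher. Each shares exon bases with a protein-coding gene on the opposite strand, TRMT61B with SPDYA (471 bases) and TRMT5 with SLC38A6 (245 bases).

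TRMT6 and TRMT61A form the cytosolic counterpart of TRMT61B, with TRMT61A as the catalytic subunit. TRMT6 was at 57.0 FPKM with SRSF1 siRNA and 72.8 FPKM with control siRNA (0.783 times, 0.747 to 0.821). TRMT61A was at 1.84 FPKM with SRSF1 siRNA and 2.15 FPKM with control siRNA (0.856 times, 0.678 to 1.08). The transcript of the binding subunit was 31.0 times that of the catalytic subunit per length with SRSF1 siRNA and 33.9 times with control siRNA. TRMT112, the small protein that activates TRMT11 and ALKBH8, was at 80.3 FPKM with SRSF1 siRNA and 88.1 FPKM with control siRNA (0.911 times, 0.856 to 0.971), and TRMT11, which methylates a guanosine in the tRNA body, was at 21.0 FPKM with SRSF1 siRNA and 22.2 FPKM with control siRNA (0.946 times, 0.865 to 1.03).

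The remaining methyltransferases, with those that place methylcytosine, lay between 0.740 and 1.38 times their control levels. TRMT10C, a subunit of mitochondrial RNase P, was at 103 FPKM with SRSF1 siRNA and 110 FPKM with control siRNA (0.936 times, 0.898 to 0.975), and TRMT10A, a relative that acts on cytosolic tRNA, at 2.65 FPKM with SRSF1 siRNA and 2.91 FPKM with control siRNA (0.912 times, 0.760 to 1.09). TRMT13 and FTSJ1 methylate riboses. TRMT13 was at 15.2 FPKM with SRSF1 siRNA and 18.3 FPKM with control siRNA (0.829 times, 0.765 to 0.898), and FTSJ1 at 12.6 FPKM with SRSF1 siRNA and 14.3 FPKM with control siRNA (0.881 times, 0.791 to 0.981). The single-exon gene TRMT12, of the wybutosine pathway, was at 11.1 FPKM with SRSF1 siRNA and 13.5 FPKM with control siRNA (0.824 times, 0.657 to 1.03). TRMT2A, which makes ribothymidine, was at 5.69 FPKM with SRSF1 siRNA and 6.09 FPKM with control siRNA (0.933 times, 0.812 to 1.07). WDR6, the partner of FTSJ1 and not among the 48, was at 0.809 times (0.751 to 0.872), an interval that overlaps that of FTSJ1.

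The enzymes that place methylcytosine had unequal ratios. NSUN2, the most abundant, was at 106 FPKM in both libraries (1.00 times, 0.958 to 1.04). NSUN6 was at 7.38 FPKM with SRSF1 siRNA and 9.98 FPKM with control siRNA (0.740 times, 0.668 to 0.819). NSUN3, which acts on the mitochondrial methionine tRNA, was at 3.39 FPKM with SRSF1 siRNA and 3.46 FPKM with control siRNA (0.979 times, 0.749 to 1.28). TRDMT1, also known as DNMT2, lay on the other side, at 3.15 FPKM with SRSF1 siRNA and 2.28 FPKM with control siRNA (1.38 times, 1.21 to 1.57), and was the only methyltransferase of the 18 with a difference above 0.

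Dihydrouridine synthases reduce uridines in the D loop and elsewhere in the tRNA body. DUS4L fell past the 1.5-fold limit by a small margin, with 3.05 FPKM with SRSF1 siRNA and 5.08 FPKM with control siRNA (0.599 times, 0.493 to 0.727), a difference of -0.59. It missed the limit with quantile normalization (-0.50), after division by the median ratio (-0.54) and with the length and GC trend removed (-0.55). DUS1L was at 18.1 FPKM with SRSF1 siRNA and 24.98 FPKM with control siRNA (0.725 times, 0.666 to 0.789) and DUS3L at 6.82 FPKM with SRSF1 siRNA and 8.39 FPKM with control siRNA (0.813 times, 0.703 to 0.939). DUS2 was at 10.1 FPKM with SRSF1 siRNA and 9.28 FPKM with control siRNA (1.09 times, 0.967 to 1.24), an interval that holds 1 and does not overlap that of DUS4L, DUS1L or DUS3L. DUS4L spans bases 107563484 to 107578464 of chromosome 7 (GRCh38, plus strand) and shares 557 exon bases with COG5 on the opposite strand.

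Pseudouridine synthases turn uridine into its rotated isomer. PUS1, which serves the cytosol and mitochondria, was at 12.5 FPKM with SRSF1 siRNA and 16.3 FPKM with control siRNA (0.767 times, 0.688 to 0.854). PUS3 was at 17.96 FPKM with SRSF1 siRNA and 20.4 FPKM with control siRNA (0.882 times, 0.800 to 0.972), and PUS7 at 22.9 FPKM with SRSF1 siRNA and 25.4 FPKM with control siRNA (0.903 times, 0.848 to 0.961). PUS10 was at 1.76 FPKM with SRSF1 siRNA and 1.44 FPKM with control siRNA (1.22 times, 0.962 to 1.56), an interval that holds 1. None of the 4 reached 1.5-fold.

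The group listed for the purine next to the anticodon and for wybutosine was the only role group with a median difference above 0, at 0.05 over 6 measured members. Of these, 3 were above 0 and 3 below (50%, where 60.3% of all tested genes were below 0). Of the latter, CDKAL1 was above 0 under at least 1 alternative setting. This median depends on how roles were assigned. TRMT5 (-0.56) and ADAT1 (-0.66), which also act beside the anticodon, were placed in other groups. So was TRMT12 (-0.26), of the wybutosine pathway. OSGEP, the catalytic subunit of the KEOPS complex that makes threonylcarbamoyl adenosine, was at 25.5 FPKM with SRSF1 siRNA and 19.6 FPKM with control siRNA (1.30 times, 1.18 to 1.43), a difference of 0.36. On the log2(FPKM + 1) scale of the deposited values this was the highest difference of the 47 members. CTU1 was above OSGEP with a pseudocount of 0.1, with plain ratios, after rescaling to the same sum and with the length and GC trend removed, and TRDMT1 was highest with quantile normalization. Its KEOPS partners outside the 48 were below their control levels, with TP53RK at 0.893 times (0.817 to 0.976), TPRKB at 0.811 times (0.683 to 0.961), LAGE3 at 0.600 times (0.464 to 0.772) and C14orf142, now GON7, at 0.803 times (0.700 to 0.920). The interval of OSGEP overlapped none of the 4. The exons of OSGEP share 144 bases with an antisense gene on the opposite strand.

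In the wybutosine pathway, TYW1, the enzyme that builds the tricyclic base, was at 14.8 FPKM with SRSF1 siRNA and 13.4 FPKM with control siRNA (1.11 times, 1.02 to 1.21). TYW3 was at 43.1 FPKM with SRSF1 siRNA and 36.96 FPKM with control siRNA (1.17 times, 1.11 to 1.22). On the opposite strand, TYW3 shares 257 exon bases with CRYZ and TYW1 shares 208 with SBDS. TYW1 has a near-identical copy, TYW1B (4.78 FPKM with SRSF1 siRNA and 3.12 FPKM with control siRNA; 1.53 times, 1.20 to 1.95), so reads could be split between these genes and both values are uncertain. TRIT1, which adds an isopentenyl group to adenosine, was at 14.7 FPKM with SRSF1 siRNA and 15.4 FPKM with control siRNA (0.953 times, 0.861 to 1.05). Of the methylthio transferases, CDK5RAP1, of mitochondria, was at 19.0 FPKM with SRSF1 siRNA and 20.9 FPKM with control siRNA (0.908 times, 0.831 to 0.992), and CDKAL1, of the cytosol, at 4.88 FPKM with SRSF1 siRNA and 5.06 FPKM with control siRNA (0.965 times, 0.837 to 1.11).

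The 3 inosine and queuosine enzymes all had levels and counting intervals below control, as had 34.5% of all tested genes. ADAT1 alone fell past the 1.5-fold limit, as did 4.3% of all tested genes. ADAT1, which deaminates adenosine beside the anticodon of alanine tRNA, was at 2.84 FPKM with SRSF1 siRNA and 5.09 FPKM with control siRNA (0.558 times, 0.475 to 0.655), a difference of -0.66. With quantile normalization its difference was -0.57, short of the limit. The gene spans bases 75596981 to 75623300 of chromosome 16 (GRCh38, minus strand) and shares 187 exon bases with a noncoding transcript on the same strand. ADAT2, which makes wobble inosine, was at 3.77 FPKM with SRSF1 siRNA and 4.54 FPKM with control siRNA (0.831 times, 0.741 to 0.932), while its partner ADAT3 was under 1 FPKM, at 0.365 FPKM with SRSF1 siRNA and 0.462 FPKM with control siRNA. QTRT1, the catalytic subunit that inserts queuine, was at 8.77 FPKM with SRSF1 siRNA and 12.3 FPKM with control siRNA (0.710 times, 0.607 to 0.831). Its partner QTRTD1, outside the 48, was at 17.2 FPKM with SRSF1 siRNA and 17.4 FPKM with control siRNA (0.991 times, 0.925 to 1.06), an interval above that of QTRT1.

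Wobble uridine of mitochondrial tRNA is modified by MTO1 and GTPBP3, which act together, and is thiolated by TRMU. MTO1 was at 15.7 FPKM with SRSF1 siRNA and 19.9 FPKM with control siRNA (0.788 times, 0.728 to 0.853), and GTPBP3 at 3.82 FPKM with SRSF1 siRNA and 5.07 FPKM with control siRNA (0.753 times, 0.636 to 0.891). TRMU was on the other side, at 21.9 FPKM with SRSF1 siRNA and 19.2 FPKM with control siRNA (1.14 times, 1.04 to 1.25).

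**Figure D4:**
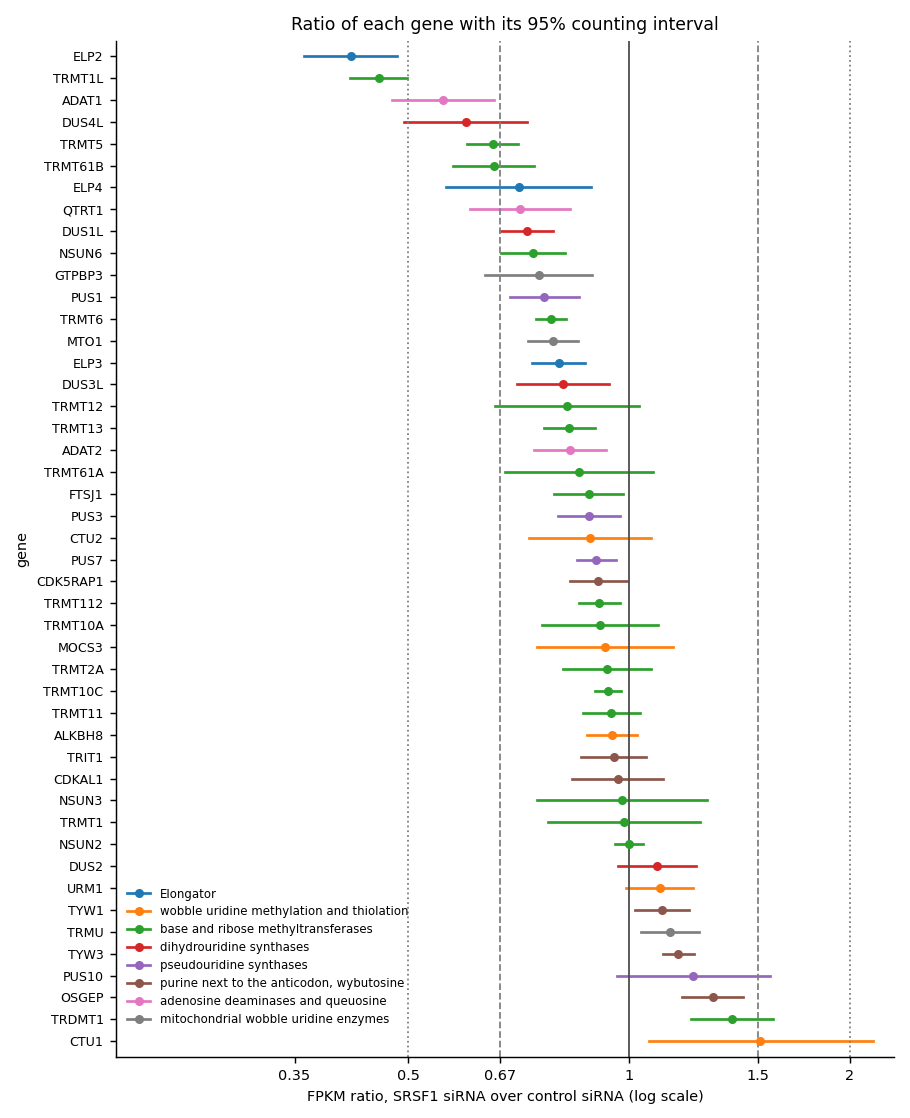
FPKM ratio of SRSF1 siRNA over control siRNA (log axis) for 46 members in order, with 95% counting intervals and colours for roles. Dashed lines mark ratios of 1.5 in either direction and dotted lines ratios of 2, without a pseudocount. The intervals of ELP2, TRMT1L and ADAT1 lie wholly below the dashed line at the left, and 6 intervals lie wholly above 1.

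Gene features that the choice of members did not use are given next, as descriptions. They describe the longest transcript of any type, which can differ from the gene model behind the FPKM values. For ELP2 it had 8459 bases, where the smallest length that fits its FPKM values was 1410. For TRMT1L these lengths were 4392 and 4408. Over the 47 members the longest GENCODE 29 transcript had a median of 3258 bases and 10 exons, against 3732 bases and 8 exons over tested mRNA genes. Spearman's rho between transcript length and difference was 0.01 across the 47 members and 0.22 across 9973 mRNA genes, which share 2 libraries and are not independent replicates. For GC content rho was 0.02 and -0.13, and for exon number 0.03 and 0.15. The pentamer GGAGA, which is part of the binding sequence reported for SRSF1, occurred at a median of 1.75 per kilobase of transcript in the members and 1.82 in tested mRNA genes, with rho of -0.07 and -0.08 against the difference. ELP2 had 1.89 and TRMT1L 1.37 GGAGA per kilobase, on both sides of the median. The purine-rich hexamer GAAGAA occurred at a median of 0.775 per kilobase in the members and 0.685 in tested mRNA genes, with rho of 0.14 and 0.06. The FPKM values are sums over a gene and hold no information on exon use.

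**Figure D5:**
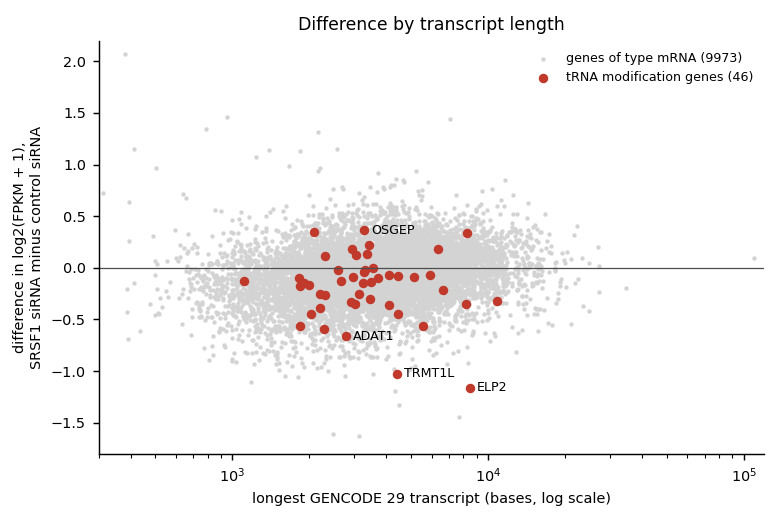
Change (log2 scale, pseudocount 1, SRSF1 siRNA over control siRNA) against the length of the longest GENCODE 29 transcript (log axis) for 9973 mRNA genes (grey) and 46 members (red). The longest listed transcripts of ELP2 and TRMT1L have 8459 and 4392 bases, both above the members' median of 3258, at differences of -1.16 and -1.03.

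Genes outside the 48 that act on tRNA are given for comparison, and no difference between the lists was tested. Of 41 other tRNA modification genes, 39 were measured at a mean of at least 1 FPKM, with a median difference of -0.13 and 27 below 0 (69.2%, against 60.3% of all tested genes). They ran between -0.68 and 0.49. At least 1.5-fold higher were 0 of them (all tested genes 1.22%), and at least 2-fold lower were 0 (0.435%). At least 1.5-fold lower was 1 of them (2.56%, against 4.3% of all tested genes). This was THG1L, which adds the extra guanosine of histidine tRNA, at 16.5 FPKM with SRSF1 siRNA and 26.9 FPKM with control siRNA (0.612 times, 0.547 to 0.684). Of 30 genes of tRNA processing and export, all measured, the median was -0.18, with 24 below 0 (80.0%, against the same 60.3%). They ran between -0.76 and 0.30, with 2 at least 1.5-fold lower (6.67%, against 4.3% of all tested genes). None was as much higher (all tested genes 1.22%) or at least 2-fold lower (0.435%). With so few genes past each limit, the shares of both lists are uncertain. TSEN15, a subunit of the endonuclease that removes tRNA introns, was at 11.4 FPKM with SRSF1 siRNA and 19.9 FPKM with control siRNA (0.571 times, 0.514 to 0.635). XPOT, the export receptor of tRNA, was at 38.03 FPKM with SRSF1 siRNA and 60.8 FPKM with control siRNA (0.626 times, 0.600 to 0.653). The partners of TRMT10C in mitochondrial RNase P, which belong to these lists, were at 0.960 times (HSD17B10, 0.864 to 1.07) and 0.774 times (KIAA0391, 0.719 to 0.832).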

How the data were processed

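Transcript levels were measured by RNA sequencing in 1 library of RKO cells per group. Per the submitters' processing notes, the tools and builds used were Bowtie 0.12.2 and hg19. Not given in the sources used here were the counting tool, annotation, strand setting and filters. The authors deposited 1 FPKM value per gene and library, and a mapping summary per library that gives read numbers (other units) and the fraction of these reads that mapped to a given chromosome.

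Groups were taken from the labels. Genes with a mean of at least 1 FPKM were kept (11274 of 40205), and differences were taken as log2(FPKM + 1), with a pseudocount of 1. Whole fragments were recovered from the FPKM values with library totals of 23852089 (SRSF1 siRNA) and 23138519 (control siRNA). These gave whole counts and lengths for 16227 of 16235 genes above 0 in both libraries, within a relative tolerance of 2e-12. The counts are the smallest that fit, and a true count could be a multiple, so intervals may be too wide for some genes. PCR copies are not independent molecules. The median count was 596 with SRSF1 siRNA and 618 with control siRNA.

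GENCODE 29 (GRCh38) gave positions, lengths and exon overlaps, by symbol, and its coordinates differ from hg19. Overlapping exons were found for 22 members, on the opposite strand for 19. Members with ratios above 1, such as OSGEP, TYW1, TYW3, DUS2 and URM1, are among the 22, whereas CTU1, TRDMT1 and TRMU are not. Of the members at least 1.5-fold lower, ELP2, ADAT1 and DUS4L are among the 22 and TRMT1L is not. A further expressed member is counted among the 47 but not reported here. All others could be named, and of the other lists those at least 1.5-fold changed, partners of members and TYW1B, the near-identical copy of TYW1. The members, lists and roles were chosen with earlier results of these data known. Promoter windows were also searched for an NRF1 motif, which is not reported here. Scripts were tested on simulated data. Python 3.11.15, numpy 2.4.6, scipy 1.17.1, pandas 2.3.3 and statsmodels 0.14.6 were used. Alternatives were the pseudocount, the filter, 3 scalings, the plain ratio and removal of a length and GC trend (lowess, span 0.3).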

Additional observations from a re-analysis of the deposited data

How the results depend on the processing

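No paired analysis was possible because each group had 1 library, and for the same reason no library could be left out. The median difference of the 47 members stayed below 0 under all 8 alternatives (-0.18 to -0.08), and ELP2 stayed at least 2-fold lower (-1.26 to -1.10). Members at least 1.5-fold lower are given here beside the share of all genes tested at the same setting. They numbered 6 of 47 (12.8%) with a pseudocount of 0.1 (all genes 7.15%), with plain ratios (7.63%) and after rescaling both columns to the same sum (5.97%). They numbered 4 (8.51%) with no filter (3.19%) and with the length and GC trend removed (3.42%), where TRMT5 (-0.61) passed and DUS4L did not. Division by the median ratio left 3 (6.38%, all genes 3.22%). Quantile normalization left 2 (4.26%, all genes 2.9%), and so did a mean FPKM of at least 5, which leaves out ADAT1 and DUS4L (2 of 34, 5.88%, all genes 3.49%). Members at least 2-fold lower numbered 1 (2.13%) with quantile normalization (all genes 0.3%) and after division by the median ratio (all genes 0.35%). With plain ratios 1 member (2.13%) was at least 1.5-fold higher (all genes 2.27%). For the 47 single members, 357 of 363 values moved by less than the distance between the ends of the counting interval and its centre. Among the 363 are the values with no filter and with a mean FPKM of at least 5. Those could not move, because a filter changes only which genes are kept. Of the called members 0 changed sign, which their distance from 0 made unlikely. The uncalled TRMT1, TRMT10A, NSUN2, NSUN3 and CDKAL1, all near 0, did so under at least 1 setting.

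Among the other tRNA modification genes, those at least 1.5-fold lower and higher numbered 3 (7.69%) and 1 (2.56%) with a pseudocount of 0.1 and also with plain ratios. Over all tested genes the shares were 7.15% and 2.1% with a pseudocount of 0.1, and 7.63% and 2.27% with plain ratios. After rescaling to the same sum 2 were lower (5.13%, all genes 5.97%). Counts over all tested genes moved as well. With a pseudocount of 0.1, 806 were at least 1.5-fold lower and 237 higher, and 165 and 67 at least 2-fold. With plain ratios these were 860 and 256, and 202 and 64. With no filter, over 18648 genes, 594 were at least 1.5-fold lower and 247 higher, and 52 at least 2-fold higher. Of the 7646 genes that average 5 FPKM or more, 267 were lower and 69 higher, and 18 and 8 at least 2-fold. Quantile normalization gave 327 lower and 214 higher. Rescaling to the same sum gave 673 lower and 173 higher, and 107 and 50 at least 2-fold. Removal of the trend, over 10801 genes, gave 369 lower and 125 higher, and 31 at least 2-fold lower. Low members such as CTU1, on at least 87 fragments with SRSF1 siRNA and 56 with control siRNA, are limited by depth.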
